A study of Caenorhabditis elegans with 2 samples.

Results

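The nuclear hormone receptor genes of Caenorhabditis elegans were taken as every protein-coding gene of the WBcel235 (ce11) assembly whose symbol starts with nhr-, which gave 269 of 19973 protein-coding genes. Each was examined for binding of tagged JUN-1, the worm counterpart of JUN, a subunit of the transcription factor AP-1, by chromatin immunoprecipitation and sequencing (ChIP-seq) of L4 larvae, the last larval stage. All worms were of strain OP234, which carries the unc-119(ed3) III mutation and the transgene wgIs234 expressing jun-1 fused to eGFP, with both sexes pooled and whole animals used. The series holds 1 group of 2 biological replicates, with no untagged or mutant group, so the nhr genes are set against all protein-coding genes, of which they are a part. The labels name the antibody target as jun-1 in one field and the eGFP fusion in another, so whether native JUN-1 was also recovered cannot be told. They do not give the promoter that drives the fusion, the state of the native jun-1 gene or whether the replicates were separate cultures. In whole larvae, a site bound in few cells and one bound weakly in many cannot be told apart.

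Nuclear hormone receptors are transcription factors with a zinc finger domain that binds DNA and a domain that can bind small lipophilic ligands such as steroids and fatty acid derivatives. The nematode family is greatly expanded, largely from genes related to vertebrate HNF4, and most of its members have no known ligand. Well studied members control molting, developmental timing, fat metabolism and responses to diet, toxins and pathogens. AP-1 proteins are basic leucine zipper factors that bind DNA as dimers.

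The authors deposited 4 lists of peak regions on ce11, and each region carries a summit position and a signal, which is the authors' own value per peak. The joint list, made from both replicates, held 13085 regions, and 899 of them passed the authors' reproducibility threshold and are called reproducible below. The replicate lists, which include background regions, held 19396 regions in replicate 1 and 23742 in replicate 2. A gene had a promoter summit when a summit lay in the 1000 bp before or the 200 bp after one of its transcript starts. Signals are compared only within a list, where rank 1 is the strongest region, and intervals are exact binomial at 95%, covering counting error only. Read depth is unknown, since the lists hold no read counts.

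Summits of the reproducible list lay at 13 sites of 12 nhr genes, 11 of them in promoter windows and 2 in introns. The genomic sequence around the summits of 9 of these sites is given first. The set holds the 4 strongest promoter sites, of which that of nhr-255 is inside a tRNA gene, every promoter site with an AP-1 or GA match, both intronic sites and the promoter site of nhr-3, which has one of each kind. Each stretch is from the RefSeq WBcel235 genome, covers up to 50 bp on each side of the summit, stops where an annotated untranslated region begins, and is written 5′ to 3′ on the strand of the nhr gene. Capitals mark matches, on either strand, to GAGAGA (a GA repeat) or TGACTCA (the AP-1 consensus).
nhr-47, chrV:5505176-5505252, + strand: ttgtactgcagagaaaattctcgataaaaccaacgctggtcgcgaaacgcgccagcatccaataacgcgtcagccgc
nhr-48, chrX:15707531-15707631, + strand: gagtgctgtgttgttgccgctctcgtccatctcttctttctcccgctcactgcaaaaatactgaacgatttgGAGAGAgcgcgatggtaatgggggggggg
nhr-58, chrV:532183-532258, + strand: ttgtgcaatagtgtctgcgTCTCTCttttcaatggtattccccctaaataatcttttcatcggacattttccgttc
nhr-255, chrX:15742021-15742121, + strand: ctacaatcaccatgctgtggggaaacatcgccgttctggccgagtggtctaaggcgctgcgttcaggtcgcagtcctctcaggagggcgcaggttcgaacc
nhr-119, chrII:2800965-2801065, - strand: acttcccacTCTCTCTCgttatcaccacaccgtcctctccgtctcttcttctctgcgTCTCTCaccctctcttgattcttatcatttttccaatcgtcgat
nhr-50, chrV:16000632-16000705, - strand: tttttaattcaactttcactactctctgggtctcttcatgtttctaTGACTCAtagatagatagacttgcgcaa
nhr-3, chrX:14558105-14558205, + strand: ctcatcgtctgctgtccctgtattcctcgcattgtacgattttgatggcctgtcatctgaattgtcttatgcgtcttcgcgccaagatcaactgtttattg
nhr-3 intron, chrX:14560381-14560481, + strand: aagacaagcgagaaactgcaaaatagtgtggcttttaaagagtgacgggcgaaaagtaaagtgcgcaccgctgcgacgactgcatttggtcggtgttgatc
nhr-19 intron, chrII:9603573-9603673, - strand: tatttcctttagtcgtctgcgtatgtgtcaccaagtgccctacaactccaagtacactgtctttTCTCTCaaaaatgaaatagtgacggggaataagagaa

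The AP-1 consensus was present at 1 of the 13 nhr sites, that of nhr-50, where it began 4 bp before the summit. Among all 899 reproducible summits, 24 (2.67%) had it within the same 101-bp window. The CRE consensus TGACGTCA, a related site of basic leucine zipper dimers, was at 0 of the 13 nhr sites and at 5 of 899 summits (0.556%). A GA repeat was the commonest match, at 4 of 13 nhr sites (30.8%, interval 9.09 to 61.4), beside 266 of 899 summits (29.6%). In nhr-119 it occurred 3 times in the window, starting 41 and 39 bp before and 7 bp after the summit, and the first 2 of these overlap. It began 22 bp after the summit in nhr-48, 31 bp before it in nhr-58 and 14 bp after it in the intron of nhr-19. When the whole 376-bp region was searched, 9 of the 13 nhr sites held a GA repeat (69.2%, interval 38.6 to 90.9), beside 482 of all 899 reproducible regions (53.6%), most of which are of that width. The E-box CACGTG was at 1 nhr site, that of nhr-68, beside 42 of 899 summits (4.67%). The nuclear receptor core motif AGGTCA was at 0 of 13 nhr sites, beside 26 of 899 summits (2.89%). The share of nhr sites with a GA repeat was near that of the whole reproducible list, and a match is a description of the letters only.

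A reproducible promoter summit was found at 11 of 269 nhr genes (4.09%, interval 2.06 to 7.2), beside 669 of all protein-coding genes, a background of 3.35%. The interval of the nhr share includes the background, and a difference was not detectable with this number of genes. The 63 homeobox genes with ceh- symbols, another family of transcription factors, had 2 (3.17%, interval 0.387 to 11). The share of nhr genes rests partly on replicate 2. Among the 899 strongest regions of a single replicate, 9 nhr genes had a promoter summit in replicate 2 (background 3.12%), and 6 had one in replicate 1 (background 3.27%). All 9 of replicate 2 are among the 11, as are 5 of the 6 of replicate 1, the other being nhr-105.

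The strongest promoter site was that of nhr-47 on chromosome V, with a joint signal of 81.9 at rank 297. Its summit lay 27 bp upstream of the nhr-47 start, and the matching replicate signals were 42.6 (rank 275) in replicate 1 and 46.5 (rank 228) in replicate 2. The same summit is in the promoter window of dnj-19, a J-domain chaperone gene transcribed the other way, although the nhr-47 start is nearer. In nhr-48, a relative of the receptor genes daf-12 and nhr-8, the summit on X had a joint signal of 77.6 at rank 333 and lay 632 bp upstream. Its replicate signals were 32 (rank 578) and 47.7 (rank 210). A weaker joint region inside nhr-48 had a signal of 33. These 2 genes and nhr-119 were the only nhr genes with a promoter summit among the 899 strongest regions of each replicate.

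**Figure D1:**
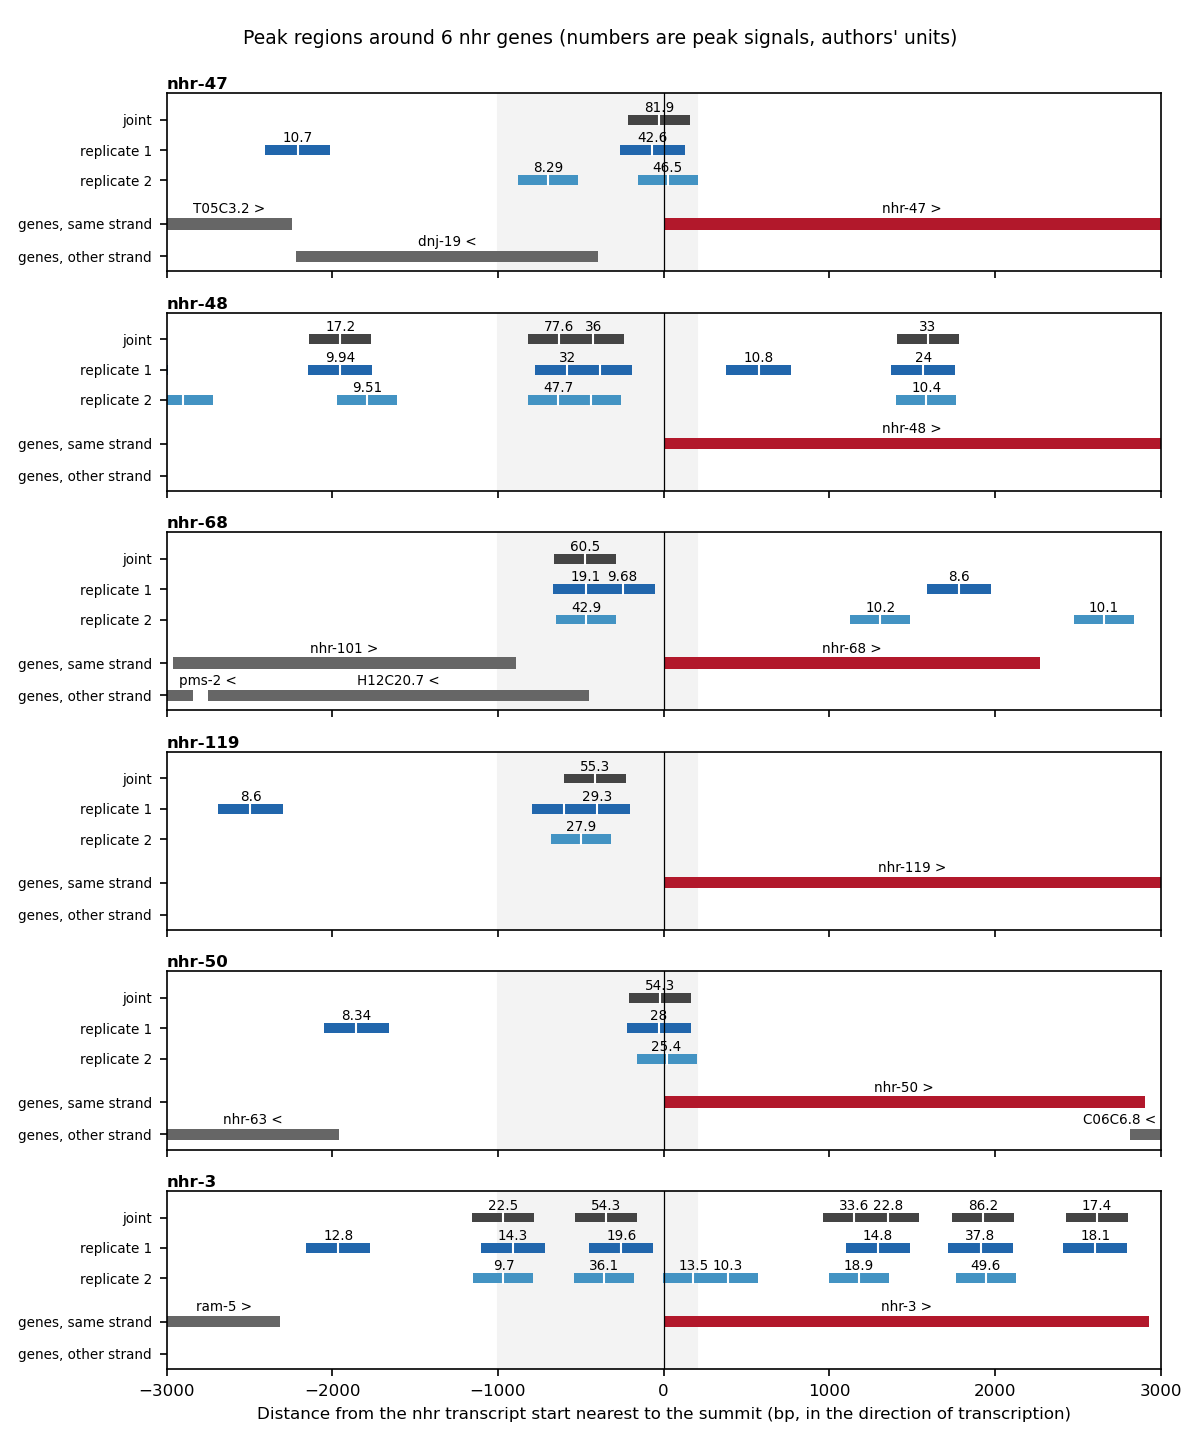
Peak regions of the joint list and both replicate lists within 3000 bp of the transcript start nearest to the summit at 6 nhr genes. The x axis is distance in bp in the direction of transcription. Shading covers the 1000 bp before to 200 bp after that start only, so windows of other starts are not shaded. White ticks mark summits. The peak signal stands above most regions, and is left out where a stronger region of the same list is close. The nhr-47 and nhr-50 summits sit at the start itself, nhr-3 has a promoter region of 54.3 and an intronic region of 86.2, and the nhr-68 region covers the start of the opposite gene H12C20.7.

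The nhr-119 site on chromosome II had similar ranks in both replicates, with signals of 29.3 (rank 697) in replicate 1 and 27.9 (rank 844) in replicate 2. Its joint signal was 55.3 at rank 700, and the summit lay 415 bp upstream. The nhr-50 site, which carries the AP-1 consensus, had 28 (rank 786) in replicate 1 and 25.4 (rank 1056) in replicate 2, with a joint signal of 54.3 at rank 739. It lay 24 bp upstream of the start, the shortest distance of the 11. The nhr-58 site, 26 bp upstream with a joint signal of 69.5 at rank 426, differed more in rank between replicates, at 26.1 (rank 934) in replicate 1 and 41.8 (rank 307) in replicate 2.

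The receptor with the best known role in this group was nhr-68, which acts with nhr-10 to switch on the propionate shunt, a pathway that breaks down propionate when vitamin B12 is scarce. Its summit had a joint signal of 60.5 at rank 571, with 19.1 (rank 2012) in replicate 1 and 42.9 (rank 289) in replicate 2. The site lay 472 bp upstream of nhr-68 but only 22 bp from the start of H12C20.7 on the opposite strand, inside an annotated 5′ UTR. The nhr-142 summit, too, lay 497 bp upstream of its own start and only 180 bp from that of F44E7.9. These are the 2 genes lost when a summit counts only for the nearest start, which leaves 9. The nhr-142 signal was 54.9 at rank 708 of the joint list, with 25.2 in replicate 1 and 31 in replicate 2.

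The other X-linked genes with a promoter site were nhr-255, nhr-35 and nhr-3, and the sites of nhr-255 and nhr-3 ranked better in replicate 2. The nhr-255 site had a joint signal of 64.4 at rank 505, with 18.4 (rank 2225) in replicate 1 and 41.6 (rank 314) in replicate 2. Its summit lay inside a tRNA gene 539 bp upstream of the receptor gene, and which of the 2 genes the site belongs to was not tested. The nhr-35 site, 273 bp upstream with a joint signal of 57.6 at rank 638, had 36 (rank 461) in replicate 2 and no summit within 100 bp in replicate 1. The strongest replicate 1 summit elsewhere in its window had 26.3 (rank 912). The nhr-3 promoter site had a joint signal of 54.3 at rank 741, with 19.6 (rank 1874) in replicate 1 and 36.1 (rank 459) in replicate 2. The nhr-256 site on V ranked better in replicate 1, at 31.2 (rank 613) in replicate 1 and 20.2 (rank 1838) in replicate 2, with a joint signal of 50.8 at rank 852, and it was the promoter site just inside the threshold.

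**Figure D2:**
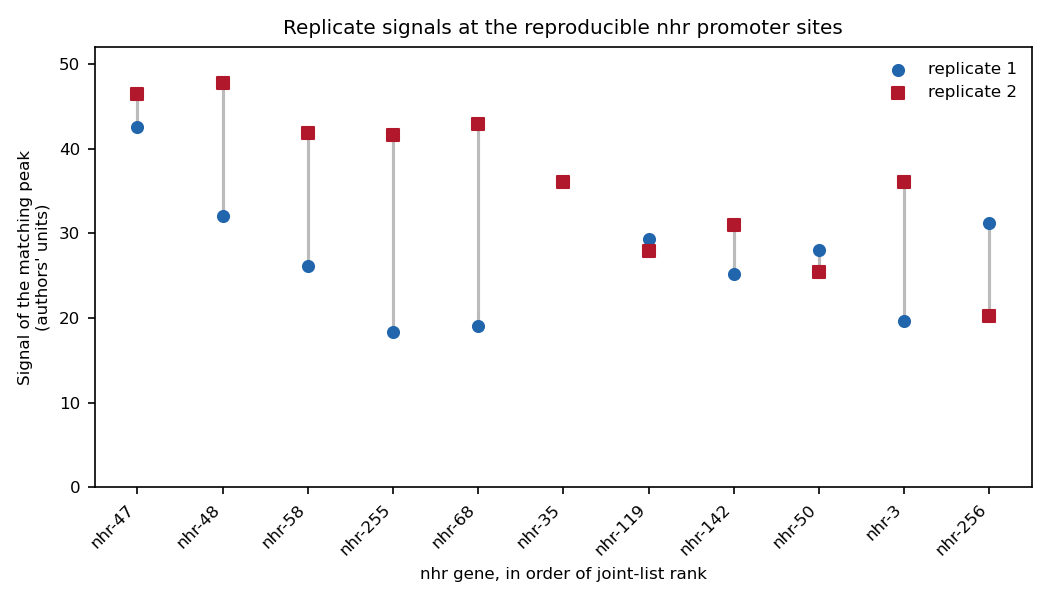
Signal, in the authors' units, of the peak within 100 bp of each of the 11 reproducible nhr promoter summits, with a circle for replicate 1 and a square for replicate 2 and genes in order of joint rank. The scale of the signal may differ between the lists, so the ranks in the text are the guide to each replicate, and nhr-35 has a replicate 2 point only.

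Of the 11 promoter sites, 10 had a summit within 100 bp in both replicate lists, and 7 of these 10 ranked better in replicate 2. Of all 846 reproducible peaks so matched, 404 (47.8%) ranked better in replicate 2. None of the 11 promoter sites ranked above 297 in the joint list. Their joint signals ran from 50.8 to 81.9 with a median of 57.6, while all 899 ran from 49.6 to 564 with a median of 67.5, and 3 of the 11 were among the strongest 449. With the intronic sites below, 5 of the 13 nhr sites were. All summits were upstream of the nhr start, by 24 to 632 bp with a median of 349 bp, and 10 of the 11 lay outside protein-coding genes, 1 of them in the tRNA gene near nhr-255.

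**Figure D3:**
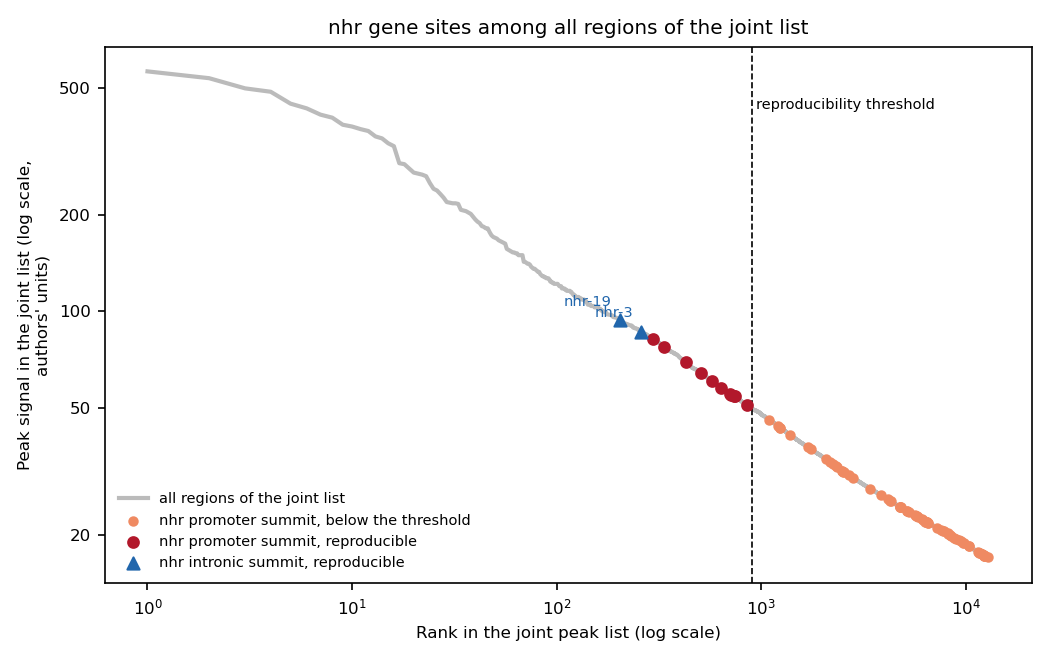
Peak signal in the joint list in the authors' units against rank, both on log axes, with all 13085 regions as a grey line, the strongest promoter summit of 81 nhr genes as circles and the reproducible intronic summits as triangles. The 11 reproducible promoter sites lie between ranks 297 and 852, and the intronic sites of nhr-19 and nhr-3 rank above them.

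Within gene bodies, 2 of 269 nhr genes (0.743%, interval 0.0902 to 2.66) had a reproducible summit, beside a background of 1.14%. Both were intronic and both ranked above every nhr promoter site. The intron of nhr-19 held the strongest nhr site of the data, with a joint signal of 93.7 at rank 204, 1627 bp downstream of the start, and replicate signals of 49.3 (rank 179) and 44 (rank 265). No joint summit lay in the nhr-19 promoter window. The nhr-3 intron, 1927 bp downstream, had 86.2 at rank 259, with 37.8 (rank 379) and 49.6 (rank 196) in replicates 1 and 2. Thus nhr-3 was the only nhr gene with a reproducible summit in both its promoter window and its body. The body summit just outside the threshold was in an intron of nhr-120 on X, with a joint signal of 49.3 at rank 913. Next came the intron of nhr-46 on IV, with 44.5 at rank 1171. The strongest 899 regions of replicate 1 alone also took in nhr-46, giving a count of 3 (1.12%, background 1.18%). Those of replicate 2 alone also took in nhr-120 and nhr-47, giving a count of 4 (1.49%, background 1.23%). The replicate 1 summit in nhr-46, of 35.7 (rank 439), is another site, 3777 bp downstream of the nearest start. The joint nhr-46 site, 1802 bp downstream, had no replicate 1 summit within 100 bp. The replicate 2 summit in the nhr-47 body, 25 bp after the start, is that of its promoter site.

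Further down the body list, nhr-17 on X had an intronic summit of 36.5 at rank 1809, with 24.3 (rank 1091) in replicate 1 and 11.7 (rank 7946) in replicate 2. It lay 2654 bp downstream of the nhr-17 start, nearer to a start of nlp-76 at 1297 bp, and within 250 bp of a tRNA gene. In nhr-27 on X the summit had 35.1 at rank 1981 and lay in an intron 48347 bp downstream of the nearest nhr-27 start, closer to a start of cept-1. The nhr-55 summit on V, 34.9 at rank 2014, was the only one of these in a coding exon.

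In the joint list with no threshold, 81 of 269 nhr genes (30.1%, interval 24.7 to 36) had a promoter summit, beside a background of 24.7%. The ceh- genes had 10 of 63 (15.9%, interval 7.88 to 27.3). The nhr interval starts at the background value, and the difference was not tested. Body summits were found at 74 nhr genes (27.5%, interval 22.3 to 33.3), beside 23.5%, and at 63 of these genes a body summit lay outside the gene's own promoter windows. The strongest body summits were in introns at 36 genes, in coding exons at 28, in a 5′ UTR at 7 and in a 3′ UTR at 3. In the replicate lists, 101 nhr genes (37.5%) had a promoter summit in replicate 1, beside 31.3%, and 97 (36.1%) in replicate 2, beside 35.6%. Summits of the 2 replicates within 100 bp of each other were found at 40 nhr genes (14.9%, interval 10.8 to 19.7), beside 13.1%. No summit of the joint or replicate lists lay in the windows or bodies of 84 nhr genes (31.2%), beside 6730 of all protein-coding genes (33.7%).

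The 81 joint promoter summits were distinct, with none shared by nhr genes. Their signals ran from 17 to 81.9 with a median of 23.6, beside 16.8 to 499 and a median of 24.7 at all 4924 genes with a joint promoter summit. Of the 81, 67 (82.7%) were upstream of the start, beside 84.5%, with a median position 225 bp upstream, beside 240 bp. Within 100 bp of the start lay 27 (33.3%, interval 23.2 to 44.7), beside 22.2%, while within 250 bp lay 44 (54.3%), beside 50.8%. By annotation, 53 lay outside protein-coding genes, 10 were intronic, 10 in a 5′ UTR and 8 in a coding exon. A GA repeat was near 18 of the 81 summits (22.2%, interval 13.7 to 32.8), beside 630 of 4165 distinct promoter summits of all genes (15.1%). AGGTCA was near 4 of 81 (4.94%), beside 2.91%, and TGACTCA near 3 of 81 (3.7%), beside 2.3%.

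**Figure D4:**
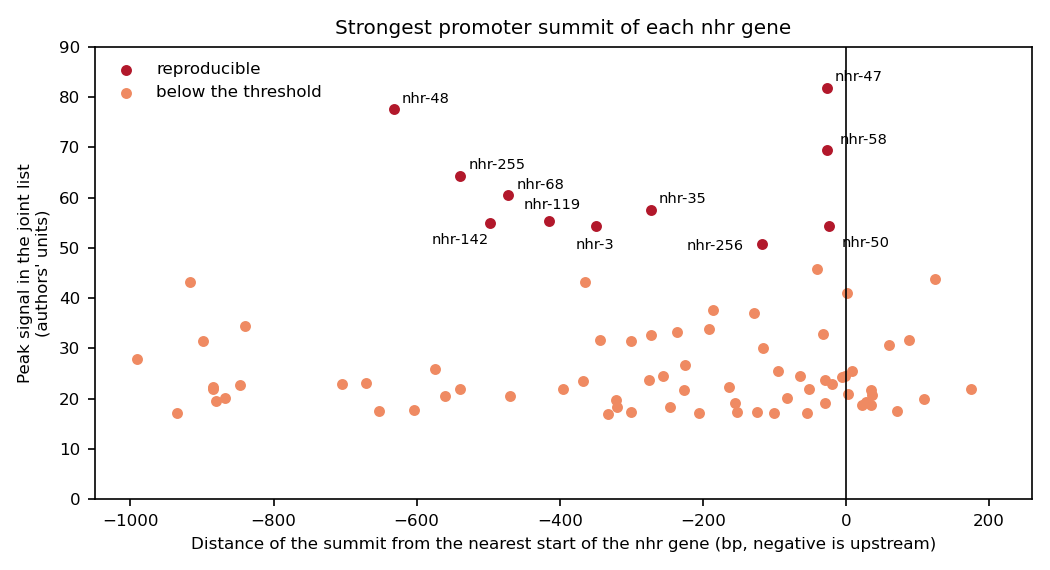
Joint peak signal in the authors' units against the distance in bp of the strongest promoter summit from the nearest start of each of 81 nhr genes, with reproducible sites named. The reproducible sites all lie upstream, with nhr-47, nhr-58 and nhr-50 next to the start and nhr-48 farthest. The other summits spread from -991 to 175 bp, with signals between 17 and 45.9.

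Over the 40 pairs of matched replicate summits at nhr promoters, the signals had a Spearman rank correlation of 0.552 and a Pearson correlation of 0.65 on the log2 scale. Over 2117 pairs at all promoters the values were 0.646 and 0.75. These describe sites that share the same 2 libraries. At nhr-3 the matched pair was not the reproducible promoter site but a weaker one, of 14.3 and 9.7, and nhr-35 had no pair. Matching within 50 bp gave a rank correlation of 0.354 at nhr promoters.

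Below the threshold, the nhr-178 site on V was just outside, with a joint signal of 45.9 at rank 1089, 41 bp upstream. It was followed by nhr-41, with 43.8 at rank 1208, whose summit lay inside a tRNA gene within an intron, 125 bp after a start. Next were nhr-34 with 43.3 at rank 1233 and nhr-105 with 43.2 at rank 1239. The nhr-105 site had GA repeats at the summit and 43 bp before it, and with 29 (rank 724) it was among the strongest 899 regions of replicate 1, while replicate 2 had 20 (rank 1874). The nhr-291 site on V had 37.1 at rank 1747.

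Of 10 receptors with known roles in development, 7 (70%) have 2 or more starts. Their median window was 2402 bp, beside 1201 bp for all protein-coding genes, and its part in the counts was not tested. Of the 10, 0 had a reproducible promoter summit (interval up to 30.8%), beside the background of 3.35%. In the joint list 4 (40%, interval 12.2 to 73.8) had one, beside 24.7%. Both intervals include the background. The strongest besides nhr-41, a relative of vertebrate TR2 and TR4, was that of nhr-85, a Rev-erb relative of the developmental timing pathway, with 34.5 at rank 2058. It matched 26.5 (rank 953) in replicate 2 and no summit within 100 bp in replicate 1. The embryonic receptor nhr-2 had 21.9 at rank 6425, and nhr-67, the tailless relative, had 17 at rank 12787. The molting regulators nhr-23, the ROR relative, and nhr-25, the Ftz-F1 relative, had body summits only, with 25.5 at rank 4258 and 24.1 at rank 5013, and nhr-40, needed in muscle development, had one of 23.9 at rank 5098. No joint summit lay in the windows or bodies of nhr-91, nhr-60 or nhr-6. For nhr-6, the NR4A relative of the spermatheca, the replicate lists had none either.

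Among 16 receptors of metabolism and stress, 1 (6.25%, interval 0.158 to 30.2) had a reproducible promoter summit, nhr-68, beside the background of 3.35%. In the joint list 11 (68.8%, interval 41.3 to 89) had one, beside 24.7%. The remaining 243 nhr genes, in neither list, had 66 (27.2%, interval 21.7 to 33.2). Of the metabolism list, 11 of 16 genes (68.8%) have 2 or more starts, beside 84 of 243 (34.6%) in neither list. The median window was 1210 bp in the metabolism list and 1201 bp in neither list. Across all protein-coding genes with 2 or more starts, 35.7% had a joint promoter summit. The part of the number of starts in the count of 11 was not tested, and the list was drawn up with earlier results of these data known.

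The joint signals of these 11 sites ran from 17.3 to 60.5 with a median of 32.8, beside medians of 23.6 for nhr genes and 24.7 for all genes. The site of nhr-8, the receptor of cholesterol balance and toxin resistance, had 41 at rank 1381, 2 bp after the start, with 11.1 (rank 9229) in replicate 1 and 23.5 (rank 1276) in replicate 2. The site of nhr-49, which drives fatty acid desaturation and beta oxidation, had 37.6 at rank 1688, with 22 (rank 1405) in replicate 1. Replicate 2 had no summit within 100 bp, and its strongest elsewhere in the window had 20.9 (rank 1704). Of the relatives that pair with NHR-49 in lipid metabolism, nhr-66 had a joint promoter summit of 33.3 at rank 2244. The summits matching it were weak, with 9.23 (rank 14676) in replicate 1 and 8.11 (rank 19287) in replicate 2. The strongest summits elsewhere in the nhr-66 windows had 11.9 (rank 7525) in replicate 1 and 24.4 (rank 1165) in replicate 2. The other 2 relatives, nhr-80 and nhr-13, had joint body summits only, of 24.8 and 20.8. The hypoxia target nhr-57 had 33.9 at rank 2160, with 15.4 in replicate 1 and 22.7 in replicate 2. The site of nhr-114, which protects the germline on certain diets, had 32.8 at rank 2329, 32 bp upstream. Weaker still were the iron uptake regulator nhr-14, with 23.7, and the HNF4 relative nhr-69, with 22.3. The joint signal was 21.8 for nhr-62, which acts in longevity under dietary restriction, 20.7 for the fat regulator nhr-64 and 17.3 for nhr-86, which senses a pathogen metabolite. Neither nhr-76 nor nhr-45 had a promoter summit in any of the lists, and both had weak joint body summits, of 22.9 and 17.5. The partner of nhr-68 in the propionate shunt, nhr-10, had no joint summit at all.

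Related gene lists were too short for their counts to be read against the background of 3.35% in the reproducible list and 24.7% in the joint list. Of 6 receptor genes that carry other symbols, 0 had a reproducible promoter summit and 1, daf-12, had one in the joint list. The dafachronic acid receptor gene daf-12 had a promoter summit of 25 at rank 4491 and an intragenic one of 39.6 at rank 1494, and unc-55 had a body summit of 17.4. No joint summit was found at fax-1, odr-7, sex-1 or hizr-1. Among 6 genes of receptor cofactors and ligand handling, din-1, which encodes a corepressor of DAF-12, had a reproducible promoter summit of 75.7 at rank 348 and a body summit of 64.8 at rank 500. The Mediator subunit gene mdt-15, a coactivator partner of NHR-49, had 31.4 at rank 2543. No joint promoter summit lay at daf-9, daf-36, lbp-8 or sbp-1. Of 7 genes that these receptors are known to switch on, 0 had a reproducible promoter summit and 2 had one in the joint list. These were the desaturase gene fat-6, with 38.8 at rank 1567 and a nearer start of ZK822.9 at 55 bp, and the monooxygenase gene fmo-2, with 18.4 at rank 10397. None was found at fat-5, fat-7, acs-2, acdh-1 or hphd-1.

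The nhr genes are unevenly placed in the genome, with 167 of 269 (62.1%) on chromosome V. Of these, 6 (3.59%, interval 1.33 to 7.66) had a reproducible promoter summit, beside 2.18% of all protein-coding genes on V. Of the 23 nhr genes on X, 4 (17.4%, interval 4.95 to 38.8) had one, namely nhr-48, nhr-255, nhr-35 and nhr-3, beside 3.11% of genes on X. The share on X rests on 4 genes and on replicate 2. The 899 strongest regions of replicate 2 gave the same 4 genes, beside 3.15% of genes on X. Those of replicate 1 gave 1, nhr-48 (4.35%), beside 3.26%, and the nhr-255 site is inside a tRNA gene. On V the 899 strongest regions gave 4 nhr genes (2.4%) in replicate 2 and 3 (1.8%) in replicate 1, beside 2.02% of genes on V in each. The last of the 11, nhr-119, is on II, where 1 of 15 nhr genes (6.67%) had a reproducible promoter summit, beside 3.36% of genes there. On I, III and IV, 0 of 23, 8 and 33 nhr genes had one, beside 4.17%, 4.7% and 3.51% of genes there. The intervals of these 0 counts reach up to 14.8%, 36.9% and 10.6% and include those backgrounds. The split by chromosome was chosen with earlier results known and was not tested.

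In the joint list, nhr genes with a promoter summit made up 11 of 23 on X (47.8%, interval 26.8 to 69.4), 15 of 33 on IV (45.5%, interval 28.1 to 63.6) and 43 of 167 on V (25.7%, interval 19.3 to 33.1). The shares of all protein-coding genes were 27.7% on X, 24% on IV and 19.8% on V. On III, 0 of 8 nhr genes had a joint promoter summit, beside 31.3% of genes there. The V genes lie mostly on the chromosome arms, outside the central 50% of its length. On the arms of V, 30 of 111 nhr genes (27%, interval 19 to 36.3) had a joint promoter summit, beside 350 of 2370 genes (14.8%), while in the centre 13 of 56 did (23.2%), beside 24.3%. With the reproducible list the counts were 3 of 111 on the arms, beside 1.27%, and 3 of 56 in the centre, beside 3.01%.

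**Figure D5:**
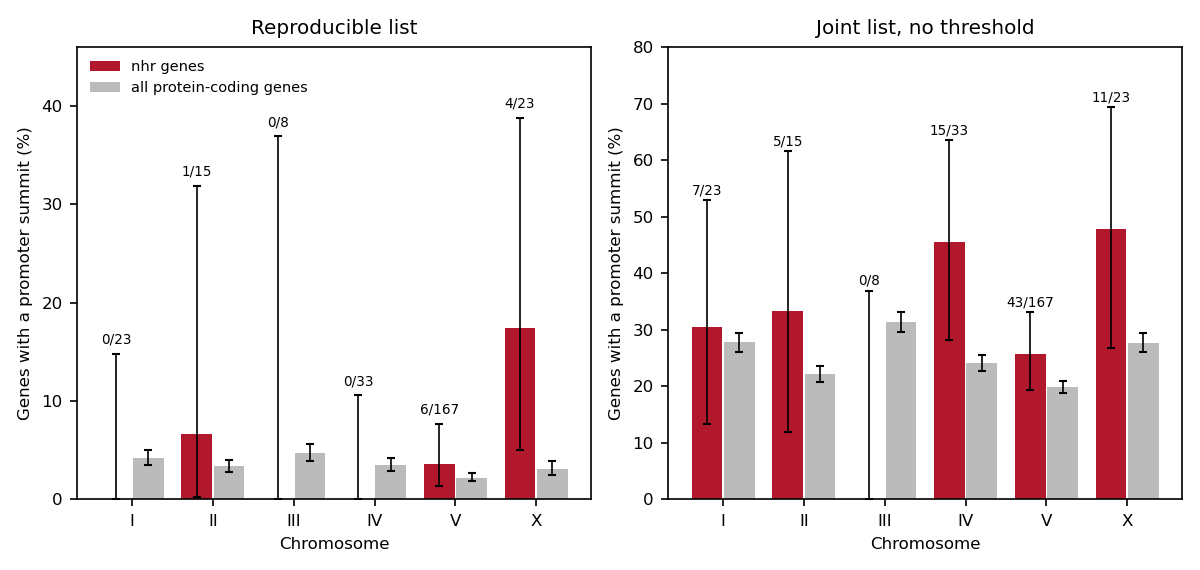
Percentage of nhr genes (red) and of all protein-coding genes (grey) on each chromosome with a promoter summit in the reproducible list (left) and the joint list (right), with exact 95% binomial intervals as error bars and counts of nhr genes above. The X share is highest in both panels for nhr genes, with intervals that reach down to 4.95% in the reproducible list and 26.8% in the joint list.

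The structure of nhr genes sets how much sequence was searched. A single transcript start was annotated for 167 nhr genes (62.1%), beside 72.6% of all protein-coding genes, although the median window was 1201 bp in both. Among nhr genes with 1 start, 42 of 167 (25.1%, interval 18.8 to 32.4) had a joint promoter summit, beside 20.5%, and 5 (2.99%) had a reproducible one, beside 2.68%. Among those with 2 or more starts, 39 of 102 (38.2%, interval 28.8 to 48.4) had a joint promoter summit, beside 35.7%, and 6 (5.88%) had a reproducible one, beside 5.11%. The 11 nhr genes with a reproducible promoter summit had a median length of 4211 bp, and all 269 had a median of 2309 bp, beside 2027 bp for all protein-coding genes. The median GC content around the 11 summits was 45.5%, from 36.6% to 60.4%, beside 48.5% at all reproducible peaks.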

How the data were processed

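The data were ChIP-seq peak lists of tagged JUN-1 from 2 samples of 1 group. The signal of each peak is the deposited value of the authors' peak caller, its scale is not given, and the joint list and the reproducible subset pool both replicates. Per the labels, lists were made on ce11 and ce10, and the ce10 lists were not used here. Aligner and peak caller were not given in the sources used here. Testing the reproducible list showed it to be exactly the 899 strongest regions of the joint list, and 0 regions ran past a chromosome end.

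Summits were placed on Ensembl release 115 annotation of WBcel235, with sequence from the RefSeq genome of that assembly, using Python 3.11.15, numpy 2.4.6, scipy 1.17.1 and matplotlib 3.10.9. Summits matched between lists within 100 bp, taking the strongest. The promoter search was tested on simulated data, recovering 200 of 200 planted genes among 19973. No p-value was computed, since peaks are not replicates. Named genes were all nhr genes with a reproducible summit, the 10 strongest below the threshold in promoters and in gene bodies, and preset lists of receptors, cofactors and targets. Members and lists were chosen with earlier results of these data known. Alternatives changed the window, matching distance, threshold, start and replicate used, and removing peaks near small RNA genes was added after seeing the data.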

Additional observations from a re-analysis of the deposited data

How the results depend on the processing

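Keeping only the strongest 449 reproducible peaks left 3 nhr genes with a promoter summit (background 1.79%), by construction from fewer peaks. With the strongest 899 regions of 1 replicate, promoters gave 6 without replicate 2 (background 3.27%) to 9 without replicate 1 (background 3.12%). Gene bodies gave 3 without replicate 2 (background 1.18%) to 4 without replicate 1 (background 1.23%). Of these, 6 and 4 differ from the reported 11 and 2 by more than 1.5 times. Matching replicate summits within 50 bp gave 24 nhr genes (background 9.53%) and a rank correlation of 0.354, and the stricter distance admits fewer pairs. Searching whole regions gave 9 sites with a GA repeat, as more sequence was read. The count of 11 genes stayed between 9 and 15 with promoter windows of 500 or 2000 bp, or the nearest or the most upstream start only. It was also in that range with any overlap of the region, or with peaks within 250 bp of small RNA genes left out. The background moved across these settings too, from 2.53% with the nearest start only to 4.5% with 2000 bp. The count of 81 genes in the joint list stayed between 65 and 101 under the window, start and overlap choices. Its background ran from 19.1% with 500 bp to 32.7% with 2000 bp. No paired analysis was possible because there is 1 group. Without read counts or an untagged control in the files used, the lists cannot show absence of binding.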
